A study of Mus musculus with 6 samples.

Results

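Interferons, the receptors that bind them and the cytosolic sensors that trigger their production were described here through 10 genes: Ifnb1, Ifnar1, Ifnar2, Ifngr1, Ifngr2, Ddx58, Ifih1, Dhx58, Mavs and Tmem173. They were taken by gene symbol, each has 1 row among the 25124 gene rows of the deposited expression table, and all 10 were found. RNA had been sequenced from macrophages sorted out of the colonic lamina propria of C57BL/6 mice, 8 weeks old. The 3 wild type libraries were compared with 3 libraries from mice with macrophage-specific overexpression of E4BP4, a basic leucine zipper repressor and activator encoded by Nfil3. Both groups carried the same colitis model: dextran sulfate sodium, which injures the colonic epithelium, was given at 2.0% in the drinking water for 7 days, plain water followed for 7 days, and tissue was taken on day 14. No uninjured mice are among these libraries. The promoter that drives the transgene is not given in the sources used here, and neither is the number of animals behind each library. The p-values therefore reflect how far the 3 libraries of a group lie apart, which may be technical variation only.

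Type I interferons, among them interferon beta (Ifnb1), signal through a receptor of the chains IFNAR1 and IFNAR2, and interferon gamma through IFNGR1 and IFNGR2. RIG-I (Ddx58) and MDA5 (Ifih1) are helicases that bind viral or misplaced RNA in the cytosol and activate MAVS on mitochondria, while LGP2 (Dhx58) is a related helicase that lacks the signalling domains of the other two and modulates them. STING (Tmem173) is the matching adaptor for cytosolic DNA. MAVS and STING both lead to phosphorylation of IRF3 and to transcription of Ifnb1, and the genes for the RNA helicases are themselves classic interferon-induced genes.

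Nfil3, which checks the transgene, measured 117, 120 and 119 TPM in the wild type group against 133, 134 and 141 TPM in the transgenic group. The groups did not overlap and differed by a log2 fold change of 0.19 ± 0.0286 (SE, limma adjusted p = 0.00261). In the authors' deposited table the log2 fold change is 0.09, with an adjusted p of 0.0169. The difference is small, and 17.1% of all tested genes separated in this direction. The row does not separate the transgene from the endogenous gene. The libraries held 13.97 to 15.06 M recovered reads in genes, of 17.25 to 18.90 M reads given in the file headers.

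In the transgenic libraries the transcripts of all 3 RNA helicases were higher than in wild type, Ddx58 by 40.2%, Dhx58 by 25.3% and Ifih1 by 21.6%. Ifnb1 was also higher, on few reads and with a call that was lost when any of 4 single libraries was left out. The adaptors Mavs and Tmem173 and the 4 receptor chains did not pass the test in either direction, and their mean differences lay between -5.85% (Ifngr1) and 3.25% (Ifnar2). Of the 10 genes, 4 were called higher and 0 lower (limma-trend on log2(TPM + 1), Benjamini-Hochberg adjusted p below 0.05 over 12633 tested genes). Over all tested genes 8.71% were called higher and 13.2% lower. TPM is an abundance scaled for transcript length and depth, and a gene was tested where its mean reached 1 TPM in either group. The values were used as deposited, and those of a library summed to 543612 to 545319 over the gene rows. All 10 genes were tested, but Ifnb1 reached 1 TPM in the transgenic group alone, so it could enter the test only by being higher there. The groups did not overlap with the transgenic libraries higher for 4 genes (17.1% of all tested genes) and with the transgenic libraries lower for 2, Ifngr1 and Ifngr2 (22.3%). The median log2 fold change was 0.04 over the 10 genes and 0.03 over the 9 that reached 1 TPM in both groups, against -0.01 over all tested genes.

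**Figure D1:**
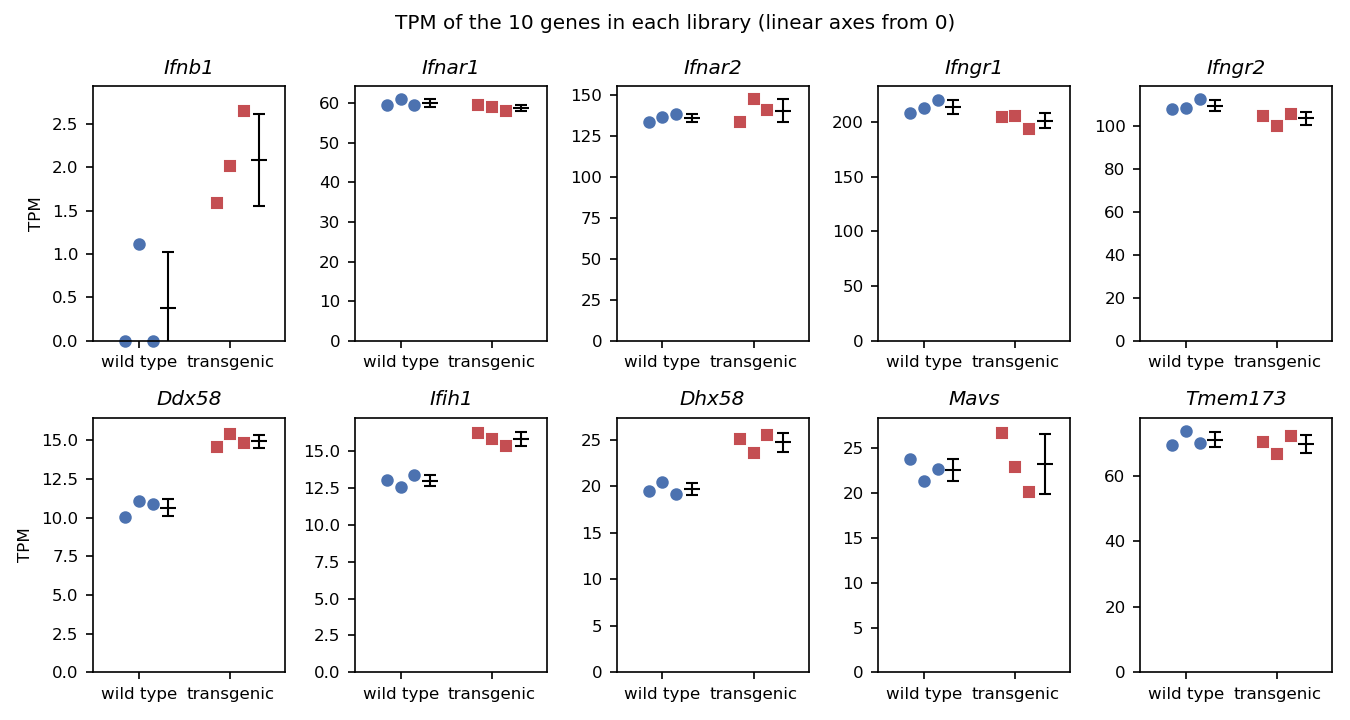
TPM of each of the 10 genes (vertical axes, linear and starting at 0) in the 3 wild type libraries (blue circles) and the 3 transgenic libraries (red squares), with the mean and SD of each group in black; the lower bar of Ifnb1 in wild type is cut off at 0. The transgenic points lie above all wild type points for Ifnb1, Ddx58, Ifih1 and Dhx58, below them for Ifngr1 and Ifngr2, and among them for the other 4 genes.

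Stretches of the start regions are shown because the helicase genes moved together, and because Ifnb1 is controlled through a compact promoter. RefSeq (GRCm38.p6, the build called mm10 in the submitters' notes) gave a window of 250 bases before to 50 bases from the first transcribed base for 8 of the 10 genes. Ddx58 at chr4:40239804-40239833 and Ifih1 at chr2:62646206-62646235, both on the minus strand, are given as 30 bases around the match to the core of the interferon-stimulated response element, in capitals. Ifnb1 at chr4:88522845-88522994, minus strand, and Ifngr2 at chr16:91546949-91547028, plus strand, are given around their match to the kappa B site, in capitals.

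Ddx58: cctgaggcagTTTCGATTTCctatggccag

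Ifih1: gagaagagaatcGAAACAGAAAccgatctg

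Ifnb1: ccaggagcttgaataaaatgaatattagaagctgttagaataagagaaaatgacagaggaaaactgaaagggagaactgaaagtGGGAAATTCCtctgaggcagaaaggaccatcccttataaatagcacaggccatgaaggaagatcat

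Ifngr2: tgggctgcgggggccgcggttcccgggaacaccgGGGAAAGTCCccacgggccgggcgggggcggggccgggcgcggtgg

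The response element core was searched as GAAA, any 2 bases, GAAA on both strands, and 2 of the 8 windows held it (Ddx58 and Ifih1), against 3.44% of 32851 windows. Both matches lie just downstream of the RefSeq start, beginning 2 bases after the first transcribed base in Ddx58 (on the opposite strand of the gene) and 32 bases after it in Ifih1. The paired GENCODE model of Ifih1 starts at 62646211 on the minus strand, and by that model its match, at 62646214 to 62646223, lies upstream of the start. Of the 4 genes called higher, Ddx58 and Ifih1 hold this match, and a window of Dhx58 was not among those searched. The window of Ifnb1 has no match at this spacing. Its printed stretch does hold GAAA runs with 3 bases between them, a form that this search does not cover. The kappa B site, searched as GGGAA, any 3 bases, CC, was found in the windows of Ifnb1 and Ifngr2, against 5.78% of windows. The gamma-activated site, searched as TTCNNNGAA, was found in those of Ifnar1 and Ifnar2, against 8.30% of windows. The element TTANGTAA, which covers the sites bound by E4BP4 and the PAR bZIP factors, matched in 0 of the 8 windows and in 2.32% of all windows. A match describes letters in the window and no bound site.

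The interferon gene itself was close to the limit of detection. Ifnb1 (NM_010510, chromosome 4 at 88522025 to 88522794, minus strand, mm10, a gene of 1 exon) had 0, 1.12 and 0 TPM across the wild type group and 1.59, 2.02 and 2.65 TPM across the transgenic group. Every transgenic library was above the single wild type library with signal, and the groups did not overlap. These values rest on 0, 11 and 0 reads in wild type and on 16, 19 and 27 reads in transgenic libraries, as recovered from TPM and transcript length. Summed over libraries, 11 against 62 reads gave a ratio per total reads of 5.50 (95% exact interval 2.87 to 11.6), an interval that covers counting error only and takes no account of the spread between libraries. The group means were 0.374 ± 0.647 and 2.08 ± 0.533 TPM (SD, n = 3 each), and the log2 fold change was 1.25 ± 0.305 (SE; limma adjusted p = 0.0232). The size of this fold change rests on the pseudocount of 1: it was 3.22 with a pseudocount of 0.1 and 3.81 with voom on the recovered reads. That call was lost without wild type replicate 1 (adjusted p = 0.0699) or 3 (0.0685), and without transgenic replicate 2 (0.0684) or 3 (0.0818), and with no filter on low values (0.149). In the authors' deposited table Ifnb1 has a log2 fold change of 2.43 and an adjusted p of 0.341, and was not called.

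Few or no reads were listed for the other interferon genes. How reads that fit several related genes were handled is not given in the sources used here. Of 20 further interferon genes in the table, 14 were listed at 0 in all 6 libraries, among them 11 interferon alpha genes and both interferon lambda genes, and 1 was tested. The tested gene was Ifng, the type II interferon made mainly by T and NK cells. Ifng gave 0.270, 0.195 and 0.331 TPM (wild type) against 1.77, 1.22 and 1.19 TPM (transgenic), from 12 and 65 reads over 3 libraries each. All transgenic libraries were above all wild type libraries, with a log2 fold change of 0.91 ± 0.160 (SE; limma adjusted p = 0.00553), and like Ifnb1 it reached 1 TPM in the transgenic group alone.

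Some markers of cells known as sources of interferon were higher in the same libraries, and others were not. For plasmacytoid dendritic cells, the main producers of type I interferon in many infections, 4 of 7 tested markers rose and 0 fell: Siglech, Bst2, Klk1 and Cox6a2. Siglech, a lectin of these cells, measured 0.814, 0.818 and 0.580 TPM in the wild type group against 3.40, 2.59 and 3.49 TPM in the transgenic group. Siglech and Cox6a2 reached 1 TPM in the transgenic group alone and so could enter the test only by being higher there, and Bst2 is induced by interferon in macrophages too. Tcf4, the factor that defines these cells, was not called (25.7 and 26.6 TPM; limma adjusted p = 0.526), nor were Runx2 (4.75 and 3.81 TPM; 0.117) and Ly6d (9.19 and 8.19 TPM; 0.295). Ccr9 (0.595 and 0.734 TPM), Pacsin1 (0.192 and 0.312 TPM) and Smim5 (0.851 and 0.637 TPM) were too low to be tested. Ccr9 and Pacsin1 had higher means in transgenic libraries, with overlap, and Smim5 was lower in every transgenic library. Across the alternatives 2 to 4 markers of this list were called higher and 0 to 1 lower. Without Bst2 the 9 other markers summed to 55.5 to 59.7 TPM in wild type and 75.6 to 80.3 TPM in transgenic libraries, and Klk1 alone went from 14.3 to 30.9 TPM.

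For T and NK cells 3 of 8 tested markers rose and 0 fell (Cd8a, Klrk1 and Gzma), and 1 to 4 rose across the alternatives. Klrk1 reached 1 TPM in the transgenic group alone (0.797 and 2.38 TPM), and the call of Gzma, a granule protease, was lost in 1 alternative (adjusted p = 0.106). The T cell receptor genes Cd3d, Cd3e and Cd3g were not called (limma adjusted p = 0.648, 0.333 and 0.172), nor were Cd4 (0.575) and Il7r (0.0612). Of the NK cell genes, 3 were too low to be tested: Ncr1 rested on 0 reads in wild type and on 6, 2 and 0 reads in transgenic libraries, while Klrb1c (0.528 and 0.354 TPM) and Eomes (0.265 and 0.122 TPM) had lower means in transgenic libraries, with overlap. The 10 markers in the table other than Cd4 summed to 28.3 to 30.5 TPM and 39.3 to 41.2 TPM. The uncalled and untested genes of both lists fall outside the naming rule. The part of these cells in the Ifnb1 and Ifng results was not tested. In sorted bulk RNA, more cells of a type and more RNA per cell cannot be told apart.

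The RNA helicases rose in all pairings of libraries across the groups. Ddx58, which encodes RIG-I (NM_172689, chromosome 4 at 40203777 to 40239825, minus strand; the paired GENCODE model has 18 exons), had 10.04, 11.07 and 10.88 TPM across the wild type group and 14.6, 15.4 and 14.8 TPM across the transgenic group. The lowest transgenic library exceeded the highest wild type library by more than the range within either group. The log2 fold change was 0.45 ± 0.0597 (SE; limma adjusted p = 0.00146), from 1977 and 2847 reads summed over 3 libraries each. In the authors' deposited table Ddx58 has a log2 fold change of 0.45 and an adjusted p of 6.17e-12.

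Ifih1, which encodes MDA5, the sensor of long double-stranded RNA (NM_027835, chromosome 2 at 62595793 to 62646255, minus strand; 16 exons), gave 13.04, 12.58 and 13.36 TPM (wild type) against 16.2, 15.8 and 15.3 TPM (transgenic). The groups were separate, with the smallest fold change of the 3 helicases in this fit. For Ifih1 it was 0.26 ± 0.0531 on the log2 scale (SE, limma adjusted p = 0.0104), and 0.31 with an adjusted p of 1.17e-07 in the authors' deposited table. In that table Dhx58 has the smallest of the 3, at 0.24.

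Dhx58, which encodes LGP2 (NM_030150, chromosome 11 at 100694884 to 100704271, minus strand; 13 exons), measured 19.5, 20.4 and 19.2 TPM in the wild type group against 25.1, 23.5 and 25.5 TPM in the transgenic group. It had the highest level per length of the 3 helicases in both groups, and its groups did not overlap. The log2 fold change was 0.31 ± 0.0508 (SE; limma adjusted p = 0.00397), and 0.24 with an adjusted p of 0.00138 in the authors' deposited table. An antisense gene, Dhx58os, covers 141 of the 2412 exon bases of the paired GENCODE model. The library kit is not described in the labels as keeping strand, and if it did not, reads of both genes there are counted together. The calls of Ddx58, Ifih1 and Dhx58 held under all 13 alternatives run, with adjusted p up to 0.0105, 0.0396 and 0.0221. Exact permutation of the mean TPM (two-sided) gave p = 0.10 for each of the 6 genes whose groups did not overlap, the smallest that 3 against 3 libraries allow.

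**Figure D2:**
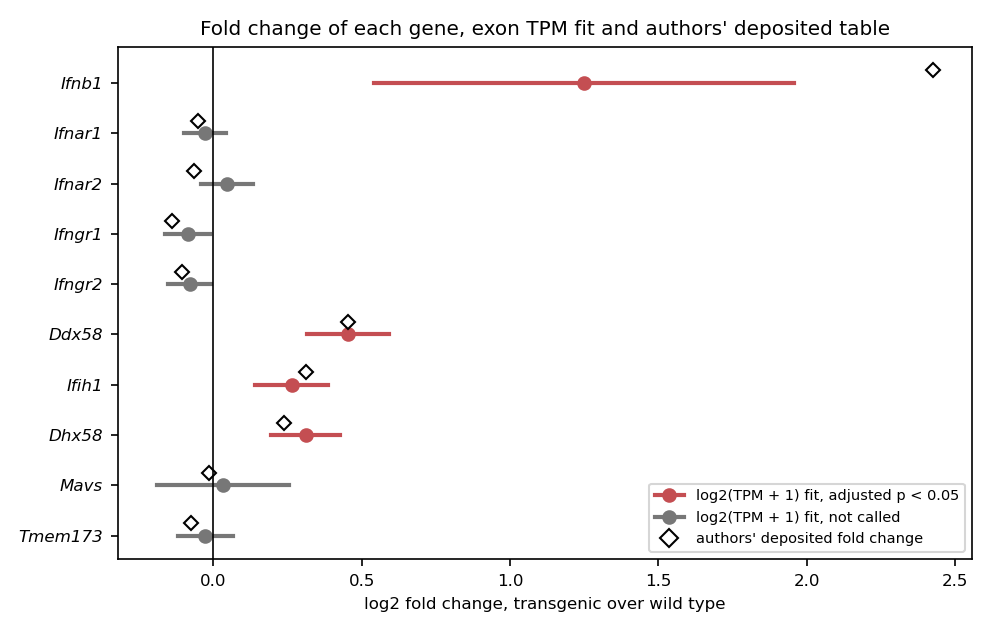
Log2 fold change of each gene, transgenic over wild type (horizontal axis), from the fit on log2(TPM + 1) with its 95% confidence interval (circles with bars, red where adjusted p is below 0.05) and from the authors' deposited table (open diamonds, no error given there). The 3 helicase genes lie right of 0 in both sources, the receptor and adaptor genes lie near 0, and Ifnb1 has the widest interval, from 0.54 to 1.96.

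The adaptors below these sensors gave no call. Mavs, the mitochondrial adaptor of RIG-I and MDA5 (NM_001206383, chromosome 2 at 131234063 to 131248024, plus strand; 7 exons), had 23.7, 21.3 and 22.7 TPM across the wild type group and 26.7, 22.9 and 20.1 TPM across the transgenic group. The transgenic libraries held both the highest and the lowest of the 6 values, so the groups overlapped fully. The log2 fold change was 0.03 with a 95% confidence interval of -0.19 to 0.25 (limma adjusted p = 0.852), the widest interval among the 10 genes after that of Ifnb1. Its sign turned without transgenic replicate 1 (-0.07) or wild type replicate 2 (-0.01).

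Tmem173, which encodes STING (NM_001289591, chromosome 18 at 35733678 to 35740554, minus strand; 7 exons), gave 69.5, 73.7 and 70.0 TPM (wild type) against 70.3, 66.7 and 72.1 TPM (transgenic). The groups overlapped, and the log2 fold change was -0.03 with a 95% confidence interval of -0.12 to 0.07 (limma adjusted p = 0.674). Its sign turned with upper-quartile scaling (0.01) and without transgenic replicate 2 (0.00). Both adaptors were likewise not called in the authors' deposited table, with adjusted p of 0.946 for Mavs and 0.185 for Tmem173. That table names other transcripts for these genes (NM_144888 and NM_028261), whose GENCODE models hold 98.7% and 100% of the exon bases of the models counted here.

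The type I interferon receptor chains were abundant and did not pass the test. Ifnar1, the signalling chain that binds the kinase TYK2 (NM_010508, chromosome 16 at 91485215 to 91510522, plus strand; 11 exons), measured 59.6, 61.1 and 59.4 TPM in the wild type group against 59.6, 59.0 and 58.0 TPM in the transgenic group. The groups overlapped. The log2 fold change was -0.03, with a 95% confidence interval of -0.10 to 0.04 (limma adjusted p = 0.550), and was 0.01 with upper-quartile scaling. Ifnar2, the chain that binds the ligand tightly and carries JAK1, had 133, 137 and 138 TPM across the wild type group and 134, 147 and 141 TPM across the transgenic group. Here too the groups overlapped, with a log2 fold change of 0.04 and an interval of -0.04 to 0.13 (limma adjusted p = 0.444).

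The level of Ifnar2 depends on the transcript that was counted. Its row counts NM_001110498 (chromosome 16 at 91372783 to 91394043, plus strand; 7 exons, 1160 exon bases), a short form, while the authors' comparison names NM_010509, which extends to a more distal last exon. By the GENCODE models 88.4% of the exon bases of the short form are shared with NM_010509, 127 bases are its own, and the shared bases are 31.9% of NM_010509. The row therefore holds reads of both forms over the shared exons and cannot tell them apart. A further gene model on the same strand, Gm21970, shares 315 of these bases. In the authors' deposited table Ifnar2 has a log2 fold change of -0.07 (adjusted p = 0.121) and Ifnar1 one of -0.05 (adjusted p = 0.0806).

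The interferon gamma receptor chains had slightly lower values in every transgenic library, and the sources differ on the call. Ifngr1, the ligand-binding chain (NM_010511, chromosome 10 at 19591949 to 19610227, plus strand; 7 exons), gave 208, 212 and 220 TPM (wild type) against 205, 205 and 193 TPM (transgenic). Ifngr2, the signalling chain (NM_008338, chromosome 16 at 91547059 to 91564007, plus strand; 7 exons), measured 108, 109 and 113 TPM in the wild type group against 105, 100 and 106 TPM in the transgenic group. In both genes every transgenic library lay below every wild type library, by a small margin. The mean of Ifngr1 differed by -5.85% and that of Ifngr2 by -5.41%. The log2 fold change was -0.09 with a 95% confidence interval of -0.16 to -0.01 for Ifngr1 (limma adjusted p = 0.10). For Ifngr2 it was -0.08, with an interval of -0.15 to -0.01 (limma adjusted p = 0.113). Neither was called, although both intervals, which are not adjusted for the number of genes, exclude 0.

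The authors' deposited table called both chains lower, with log2 fold changes of -0.14 (adjusted p = 3.29e-06) and -0.11 (adjusted p = 0.00577), in a comparison whose listed lengths are those of gene spans and not of exons. In all, 3 of the 10 genes (Ddx58, Ifih1 and Dhx58) were called higher there and 2 lower, where 11.2% of its rows with a fold change were called higher and 13.2% lower. With voom on the recovered reads Ifngr1 was called lower here too (adjusted p = 0.0125). Both receptor chains are present on most cell types. Most tested neutrophil and epithelial markers were lower in the same transgenic libraries. Of the tested neutrophil markers 5 of 6 were called lower, of the epithelial ones 7 of 10, and 0 of either were called higher. The neutrophil genes Camp, Mpo, Elane and Ltf were too low to be tested. Camp (0.135 and 0.481 TPM, from 3 and 11 reads) was higher in every transgenic library. Mpo (0.0313 and 0.0497 TPM) and Elane (0 and 0.0277 TPM) had higher means there, and Ltf (0.919 and 0.648 TPM) a lower one, all with overlap. The neutrophil markers summed to 990 to 1018 TPM in wild type and 407 to 463 TPM in transgenic libraries, and the epithelial ones to 1031 to 1040 TPM and 570 to 579 TPM. A few genes carry these sums. Without S100a8 and S100a9, which monocytes also express, the neutrophil markers summed to 147 to 161 TPM and 101 to 105 TPM, and without Car1 the epithelial ones summed to 532 to 543 TPM and 401 to 419 TPM. The neutrophil receptor gene Csf3r was not called (58.9 and 56.8 TPM, limma adjusted p = 0.428). Of the epithelial genes, Muc2 (35.9 and 36.1 TPM, limma adjusted p = 0.919) and Krt18 (16.8 and 19.5 TPM, 0.124) were not called. Cdh1 was also not called (12.8 and 10.9 TPM, limma adjusted p = 0.0823). All of these uncalled and untested genes fall outside the naming rule. The part of neutrophil and epithelial transcripts in the receptor values was not tested. The macrophage markers were present in every library, and their sums were 11470 to 11580 TPM and 11830 to 11930 TPM, with 4 of 10 higher and 4 lower. Across the alternatives 3 to 5 macrophage markers rose and 3 to 4 fell. Of the neutrophil markers 4 to 5 fell there, of the epithelial ones 6 to 8, and 0 of either rose.

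**Figure D3:**
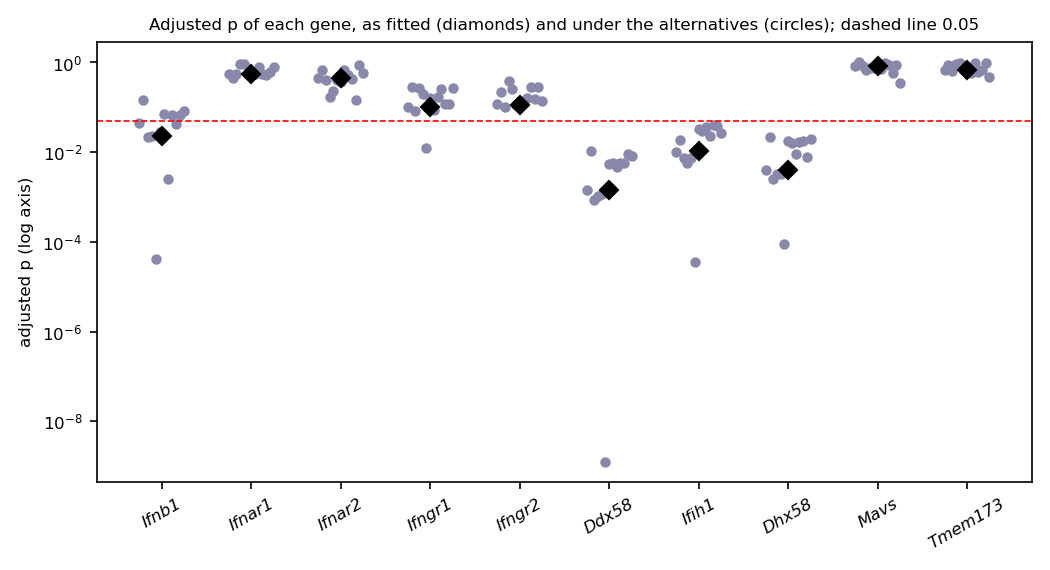
Adjusted p of each gene (log axis) in the fit as reported (black diamonds) and under each alternative (circles: another pseudocount, filter, scaling, test or design, or 1 library left out), with the threshold of 0.05 as a dashed line. Every circle of Ddx58, Ifih1 and Dhx58 lies below the line, those of Ifnb1 lie on both sides, and 1 of Ifngr1 (0.0125) lies below it.

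Ordered by level per length in wild type, the genes ran from Ifngr1 (213 ± 6.32 TPM) through Ifnar2 (136 ± 2.54), Ifngr2 (110 ± 2.55), Tmem173 (71.1 ± 2.32), Ifnar1 (60.0 ± 0.916), Mavs (22.6 ± 1.22), Dhx58 (19.7 ± 0.656), Ifih1 (12.99 ± 0.393) and Ddx58 (10.7 ± 0.544) to Ifnb1 (SD, n = 3 each). The ranges of neighbours did not overlap in wild type. The order also rests on the transcript lengths used, which differ between annotations. Ifnar1 was counted over 7000 bases, Ifngr2 over 2096 and Ddx58 over 4923, against 3909, 3708 and 3874 in the paired GENCODE models. The levels of the ratios below depend on these lengths too. In transgenic libraries Dhx58 (24.7 ± 1.04 TPM) and Mavs (23.2 ± 3.33 TPM) exchanged places and overlapped. The ranges of Ifih1 (15.8 ± 0.458 TPM) and Ddx58 (14.9 ± 0.432 TPM) also overlapped, in the same order as in wild type. Receptor chains were thus well above the helicases in both groups.

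Ratios of related genes within a library showed how far partners moved together. The ratio of Ifnar1 to Ifnar2 TPM was 0.447, 0.447 and 0.429 for wild type, against 0.445, 0.400 and 0.412 for transgenic libraries, with overlap and with the limit on Ifnar2 given above. The ratio of Ifngr1 to Ifngr2 was 1.95 ± 0.0185 and 1.94 ± 0.110 (SD, n = 3 each), also with overlap. The exact two-sided permutation p was 0.20 for the first and 0.80 for the second of these receptor ratios. The ratio of Ddx58 to Ifih1 was 0.770, 0.880 and 0.814 for wild type, against 0.899, 0.975 and 0.967 for transgenic libraries, with no overlap, and that of Dhx58 to Ifih1 was 1.52 ± 0.0970 and 1.56 ± 0.0906 (SD, n = 3 each). The exact two-sided permutation p was 0.10 for Ddx58 over Ifih1, 0.40 adjusted over the 4 ratios computed. With 3 against 3 libraries this test cannot pass 0.05 whatever the values.

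**Figure D4:**
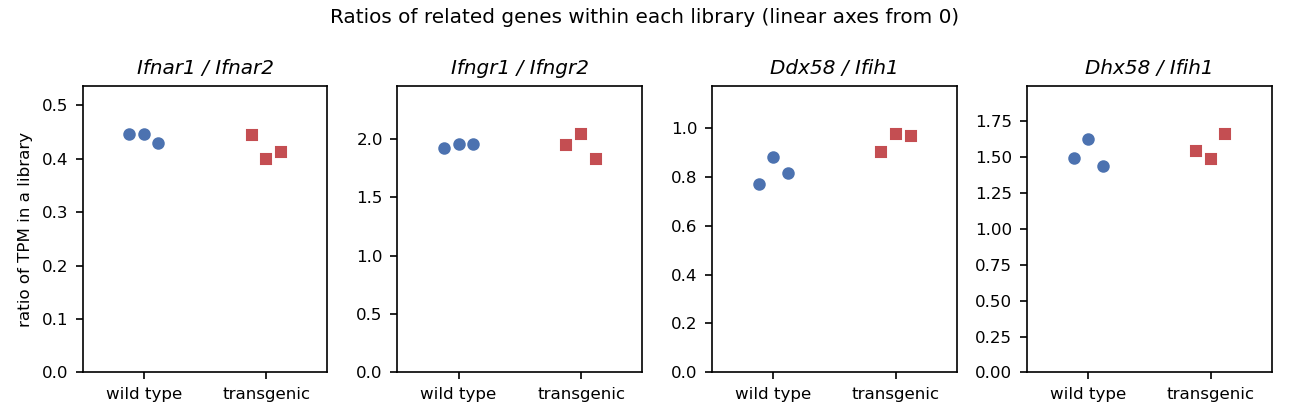
Ratio of TPM of 2 genes within each library (vertical axes, linear and starting at 0) in wild type (blue circles) and transgenic libraries (red squares). The groups separate for Ddx58 over Ifih1, from 0.770 to 0.880 against 0.899 to 0.975, and overlap for the other 3 ratios.

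By Pearson correlation of log2(TPM + 1) over the 6 libraries, the tested genes most like Ddx58, the called gene with the lowest unadjusted p, were Atrx, Lgals3, Tagln2, Spink4 and Abcd2, with r from 0.996 to 0.999. The 6 points fall into 2 separate groups and share libraries and depth, and 459 tested genes reached 0.95, so this is a description of likeness only.

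Among genes that work beside the 10, signalling partners of the RNA sensors moved both ways. Of 16 tested adaptors, ligases and kinases of this pathway 3 rose (Trim25, Irf5 and Irf7) and 3 fell (Ikbke, Tbkbp1 and Riok3), with a median log2 fold change of -0.08. Across the alternatives 1 to 3 rose and 2 to 4 fell. Over all tested genes 8.71% were called higher and 13.2% lower, the shares to set beside this and each other list count. No list was tested as a set. Trim25, the ubiquitin ligase that activates RIG-I, was at 53.9 ± 0.775 and 60.3 ± 0.994 TPM, and Irf7, the interferon-induced factor that amplifies type I interferon, at 35.0 ± 3.88 and 46.3 ± 3.13 TPM (SD over 3 libraries; limma adjusted p = 0.00932 and 0.0123). Ikbke, a kinase of IRF3 and IRF7, was at 58.2 ± 0.832 and 48.6 ± 0.940 TPM, and Tbkbp1, an adaptor of TBK1, at 25.7 ± 0.870 and 21.2 ± 0.956 TPM (SD over 3 libraries; limma adjusted p = 0.00125 and 0.00859). The kinase gene Tbk1 (31.4 and 30.4 TPM; limma adjusted p = 0.532) and Irf3 (37.9 and 35.8 TPM; 0.329) were not called. The call of Riok3 was lost under 8 of 13 alternatives. Irf5 and Riok3 fall outside the naming rule and were chosen with their values known.

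Of 11 tested inhibitors of RNA sensing, 2 rose and 0 fell: Nlrc5, also the transactivator of MHC class I genes, from 12.2 to 18.8 TPM (limma adjusted p = 0.000129), and Tnfaip3, which encodes the deubiquitinase A20, from 268 to 335 TPM (2.13e-05). The list also holds Dhx15, which is known as an RNA helicase that aids MAVS signalling and is no inhibitor of it; it was at 55.4 and 51.6 TPM and was not called (0.126). Of 15 tested genes of cytosolic DNA sensing 5 rose and 0 fell, with a median of 0.13. Those with the lowest p were Zbp1, a sensor of Z-form nucleic acid, from 27.0 to 39.8 TPM, Samhd1, a dNTP hydrolase, from 118 to 140.0 TPM, and Ifi204, from 52.3 to 65.9 TPM (limma adjusted p = 0.000213, 0.000227 and 0.000447). The sensor gene Cgas itself stood at 6.55 and 6.67 TPM (limma adjusted p = 0.892), and it was named, with Aim2 and Trex1, the other called genes, after values were seen.

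Of the 10 genes of endosomal nucleic acid sensing 4 rose and 1 fell, with a median of 0.08. Tlr9, the receptor of unmethylated DNA, rose from 33.3 to 43.6 TPM (limma adjusted p = 0.00126) and Unc93b1, the chaperone that carries these receptors to endosomes, from 733 to 821 TPM (0.000173), while the adaptor gene Myd88 fell from 98.3 to 81.7 TPM (0.00323). Tlr3, the endosomal receptor of double-stranded RNA, was at 4.67 and 5.50 TPM and was not called (0.214). Tlr7 and Tlr8, named after their values were seen, were the other calls and were lost under 4 and 5 of 13 alternatives, so that 2 to 4 genes rose.

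Below the receptors, 3 transcription factor genes rose while the kinase genes were not called. Of the 6 genes of receptor signalling described here 3 rose and 0 fell, with a median log2 fold change of 0.19. Stat2 rose from 26.3 ± 0.792 to 35.5 ± 0.572 TPM, Irf9 from 33.2 ± 2.03 to 41.8 ± 2.63 TPM and Irf1 from 107 ± 2.70 to 149 ± 2.71 TPM (SD over 3 libraries; limma adjusted p = 0.000307, 0.00805 and 2.90e-05). STAT2 and IRF9 are subunits of the complex that binds interferon-stimulated response elements, and IRF1 is an interferon-induced activator. The call of Irf9 was lost with no filter on low values (adjusted p = 0.0698). Jak1, Jak2 and Tyk2 had log2 fold changes of 0.02, -0.02 and 0.06, with limma adjusted p of 0.742, 0.843 and 0.448, and were named to complete the list.

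Of 8 tested inhibitors of receptor signalling 1 rose (Usp18) and 3 fell: Socs1, a JAK inhibitor, from 8.68 to 5.76 TPM (limma adjusted p = 0.0135), Socs3 from 609 to 551 TPM (0.00180) and the phosphatase gene Ptpn6 from 228 to 208 TPM (0.0155). Usp18, which displaces JAK1 from IFNAR2 and was named after its value was seen, stood at 5.71 and 7.52 TPM, and its call was lost under 7 of 13 alternatives, while 1 to 3 inhibitors fell across them. Of 20 classic interferon target genes 15 rose and 0 fell, with a median of 0.40, and 11 to 18 rose and 0 fell across the alternatives. Those with the lowest p were Oasl1 (from 7.96 to 15.9 TPM), Rtp4 (13.6 to 24.7 TPM) and Oas2 (22.4 to 35.8 TPM). The related receptor chain gene Il10rb, shared by interleukin 10 and interferon lambda, was at 161 and 156 TPM and not called (limma adjusted p = 0.290), while Il10ra rose from 161 to 184 TPM (0.00105). These lists were drawn up with earlier results of these data known, so their counts describe the libraries and are no independent evidence of a direction.

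**Figure D5:**
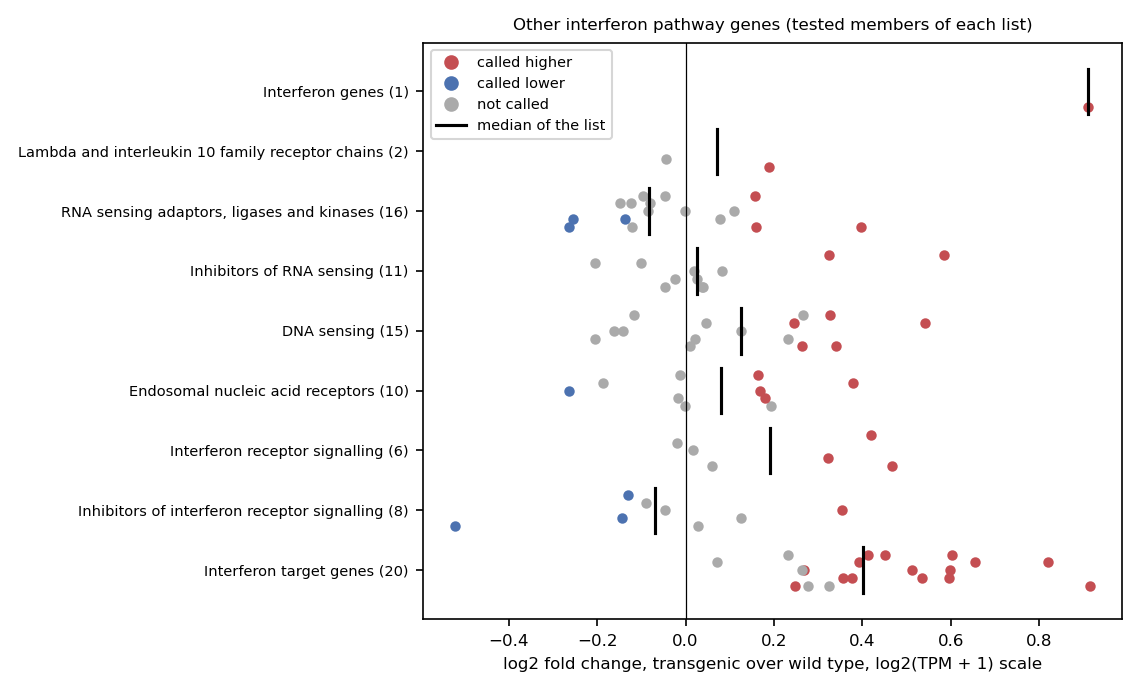
Log2 fold change, transgenic over wild type on the log2(TPM + 1) scale, of the tested members of 9 lists of interferon pathway genes (points, 1 per gene; number tested in brackets; vertical scatter within a list has no meaning), with the median of each list as a black bar. The medians of receptor signalling (0.19) and of target genes (0.40) lie right of 0, and RNA sensing partners lie on both sides of it.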

How the data were processed

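Polyadenylated RNA of sorted colon macrophages was sequenced from 20 ng of total RNA, per the labels' protocols. The submitters' processing notes name bcl2fastq, STAR, HOMER 4.11.1, DESeq2 and mm10, with no order or settings. The authors deposited TPM over the exons of 1 RefSeq transcript per gene, and a second table that holds log2 expression, the log2 fold change and its raw and adjusted p-values, per the file headers. Groups follow the sample titles; the genotype field of 2 transgenic libraries ends in another digit.

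Version 3.58.1 of limma, under R 4.3.3, was used for limma-trend. Its input was log2(TPM + 1) of genes whose mean reached 1 TPM in either group, and genotype was its single factor; this scale understates fold changes of low genes. Reads were recovered as TPM times length over a step per library; at least 99.94% of values up to 1000 reads were whole within 0.1 reads. Within a group, chi-square over degrees of freedom ran from 2.06 to 2.75 between 2 libraries, and across groups from 15.01 to 15.91.

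Named genes were the 10, Nfil3, up to 3 genes of lowest p per list, and Stat2, Irf9, Irf3, Irf7, Tbk1, Tlr3 and Ifng; genes outside this rule that complete a small count were named after their values were seen. A gene of a pathway list is not reported here, and the list's count and median leave it out. The 10 genes, the lists and the tests were chosen with earlier results of these data known. Alternatives changed the pseudocount, filter, scaling, test, replicate term or left out 1 library.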

Additional observations from a re-analysis of the deposited data

How the results depend on the processing

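Over 129 combinations of a gene and an alternative, 118 kept direction and side of the threshold. The calls of Ddx58, Ifih1 and Dhx58 held in every one of the 13 alternatives run, and 3 or 4 of the 10 genes were called higher throughout. Ifnb1 had an adjusted p of 0.149 with no filter on low values, where 25124 genes were tested, and could not be tested at a filter of 5 TPM; with a pseudocount of 0.1 its log2 fold change was 3.22 and with voom 3.81. With voom on the recovered reads 1 gene was called lower (Ifngr1, adjusted p = 0.0125), against 0 as reported. Signs turned only in genes that were not called: Ifnar1 (0.006) and Tmem173 (0.007) with upper-quartile scaling, Mavs without wild type replicate 2 (-0.008) or transgenic replicate 1 (-0.07; range -0.07 to 0.127 over single libraries left out), and Tmem173 without transgenic replicate 2 (0.004; range -0.052 to 0.004); the cause was not tested.

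Over all genes 1100 were higher and 1666 lower as reported. With no filter there were 721 and 1065; more genes are adjusted for there. Leaving out 1 library at a time gave 704 to 883 higher and 1231 to 1373 lower, the fewest higher without transgenic replicates 2 (704) and 3 (721). With upper-quartile scaling the share of higher among called genes was 51.4%, against 39.8%. With replicate number as a block, 922 were higher and 1457 lower and the same 4 of the 10 genes were called. The deviations of equally numbered libraries correlated at -0.013, -0.043 and 0.032, and not every library correlated best with its own number. No shared deviation by number was thus seen, but so few libraries cannot show whether the samples were paired by design. No ratio moved by more than the spread between libraries under its alternatives. Depth limits Ifnb1 and Ifng: 3 reads are 0.294 to 0.318 TPM over the 767 bases of Ifnb1 and 0.188 to 0.203 TPM over the 1204 bases of Ifng, a limit for counting error only.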
